A study of Oryza sativa with 30 samples.

Results

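Shoot apices of the rice (Oryza sativa) cultivar Nipponbare (NB) after 12 short days were compared with NB apices at day 0, which were still in long days. The members were chosen by the labels: 3 RNA sequencing libraries of NB day 12 and 3 of NB day 0, of 23 libraries in all. Plants were 6 weeks old when they were moved out of 16 h light and 8 h dark into 10 h light and 14 h dark, so NB day 12 had 12 such short days and NB day 0 had none. NB day 12 plants were also older, and the series holds no plants kept in long days to that age. Short days and plant age therefore cannot be told apart in any change below. The second cultivar, Taichung 65 (T65), is used for comparison at day 12 (2 libraries) and day 0 (3 libraries), and NB days 4 and 8 (3 libraries each) show the course in between. Both cultivars are temperate japonica, carry no transgene in the labels and were grown in the same kind of chamber. Apices were cut out under a microscope. The sources used here do not give the number of plants per library, and no label says that replicates were separate harvests. The p-values below therefore measure how far these libraries spread, and part of that spread may be technical.

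Rice flowers faster in short days. Leaves then make florigen proteins such as Hd3a, which travel to the shoot apex and act there with 14-3-3 proteins and a bZIP factor. The shoot apical meristem stops making leaves and becomes an inflorescence meristem, which forms the branches of the panicle and later the spikelets. At about that time the stem below begins to elongate, and the apex sample holds the meristem together with young leaf primordia and stem tissue.

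NB day 12 libraries held 15.5 to 18.3 M counts in genes and NB day 0 libraries 20.9 to 22.7 M (M is 1e+06). Levels are given as CPM, counts scaled to a library of 1 M, and they compare a gene between libraries but not one gene with another, because gene lengths were not used. A total of 3 counts came to 0.126 to 0.199 CPM in the 6 libraries. NB day 12 replicate 3 stands apart: its multiply aligned reads, which are not among the gene counts, came to 6.07% of assigned reads, against 10.4% and 10.6% in the other NB day 12 libraries and 9.70 to 10.6% in NB day 0. In a principal component analysis of the 6 libraries the first component (54.9% of the variance) separated the days, and the second (19.0%) separated that library from its own group. The labelled tissue was checked by the KNOX homeobox genes, which mark the shoot meristem: OSH1 had 196, 172 and 185 CPM at day 12, against 174, 132 and 151 CPM at day 0. The summed level of 5 KNOX genes was 422 to 463 CPM at day 12 and 358 to 483 CPM at day 0, and none of the 4 that were tested passed the test.

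Of 22839 genes tested with edgeR's quasi-likelihood test, 3023 passed at an adjusted p of 0.05, which is 13.2%. They divided into 1456 higher at day 12 (6.38%) and 1567 lower (6.86%). Past a 2-fold change there were 851 (3.73%), of which 400 were higher (1.75%) and 451 lower (1.97%). The middle gene of all those tested had a log2 fold change of -0.01, and the median size among genes that passed was 0.61. At an unadjusted p of 0.05 there were 6260 genes. Leaving out NB day 0 replicate 1 gave 1345 genes, NB day 12 replicate 1 gave 1590, NB day 0 replicate 3 gave 1781 and NB day 12 replicate 3 gave 1837. The total was 2246 without NB day 12 replicate 2 and 2680 without NB day 0 replicate 2. It thus moved with the library left out, and a fit with fewer libraries also has less power.

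The 206 genes of the lists used below cover flowering, meristem, hormone, cell cycle and growth genes and markers of other tissues. Of these, 176 passed the filter on low counts and 30 did not. Among those tested, 45 rose and 27 fell, and 104 did not pass the test. The lists were chosen with earlier results of these data known, so their share of 40.9% against the 13.2% of all genes is a description of the choice and is not read as a result. The same holds for the count of each list below. In 98 of the 176 the day 12 and day 0 CPM did not overlap, beside 38.3% of all genes tested. Of the 72 that passed, 46 remained past the threshold without NB day 0 replicate 1 and 49 without NB day 12 replicate 1. Without NB day 12 replicate 3, 58 remained, and without NB day 0 replicate 2, 64. In all, 41 remained whichever of the 6 libraries was left out.

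The genes that give the inflorescence meristem its identity were higher at day 12 in all 4 cases tested. OsMADS14, OsMADS15 and OsMADS18 are MADS-box transcription factors related to APETALA1 and FRUITFULL of Arabidopsis, and OsMADS34 is a SEPALLATA-like factor that acts with them to turn the apex into an inflorescence meristem. Their median log2 fold change was 7.96, against -0.01 over all genes tested. OsMADS34 was low in NB before day 12, so among NB libraries it passed the filter on low counts through day 12. Its being tested was thus tied to its being higher. It adds no separate support to the count of 4 or to the median. All 4 remained higher under every alternative setting that was run.

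OsMADS15 (LOC_Os07g01820) had 250, 144 and 175 CPM in the 3 NB day 12 libraries, against 0.042, 0.132 and 0.137 CPM in the 3 NB day 0 libraries. Every day 12 library lay above every day 0 library, and the day 0 values were at or below the level of 3 counts, so the log2 fold change of 10.76 ± 0.53 (SE, adjusted p = 1.9e-11, edgeR) rests on a near-empty day 0. OsMADS14 (LOC_Os03g54160) had 135, 72.8 and 83.3 CPM at day 12, against 0.42, 0.49 and 0.55 CPM at day 0. This was a 198-fold difference, with a log2 fold change of 7.63 ± 0.34 (SE, adjusted p = 4.9e-12, edgeR). OsMADS34 (LOC_Os03g54170), which neighbours OsMADS14 on chromosome 3 with no gene between them in the RefSeq table, had 48.6, 16.2 and 23.8 CPM at day 12, against 0.084, 0.044 and 0.137 CPM at day 0. Its log2 fold change was 8.28 ± 0.54 (SE, adjusted p = 5.0e-09, edgeR), and its day 0, with 1 to 3 counts a library, was as near-empty as that of OsMADS15. Replicate 1 was the highest of the day 12 libraries for these 3 genes. OsMADS18 (LOC_Os07g41370) differed from them in its day 0 level: it had 237, 210 and 210 CPM at day 12, against 28.1, 24.8 and 36.3 CPM at day 0. The groups did not overlap, and the difference was 7.37-fold, with a log2 fold change of 2.88 ± 0.18 (SE, adjusted p = 6.9e-10, edgeR). Without NB day 12 replicate 3, the log2 fold changes were 7.73 for OsMADS14, 10.82 for OsMADS15, 2.91 for OsMADS18 and 8.42 for OsMADS34.

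**Figure D1:**
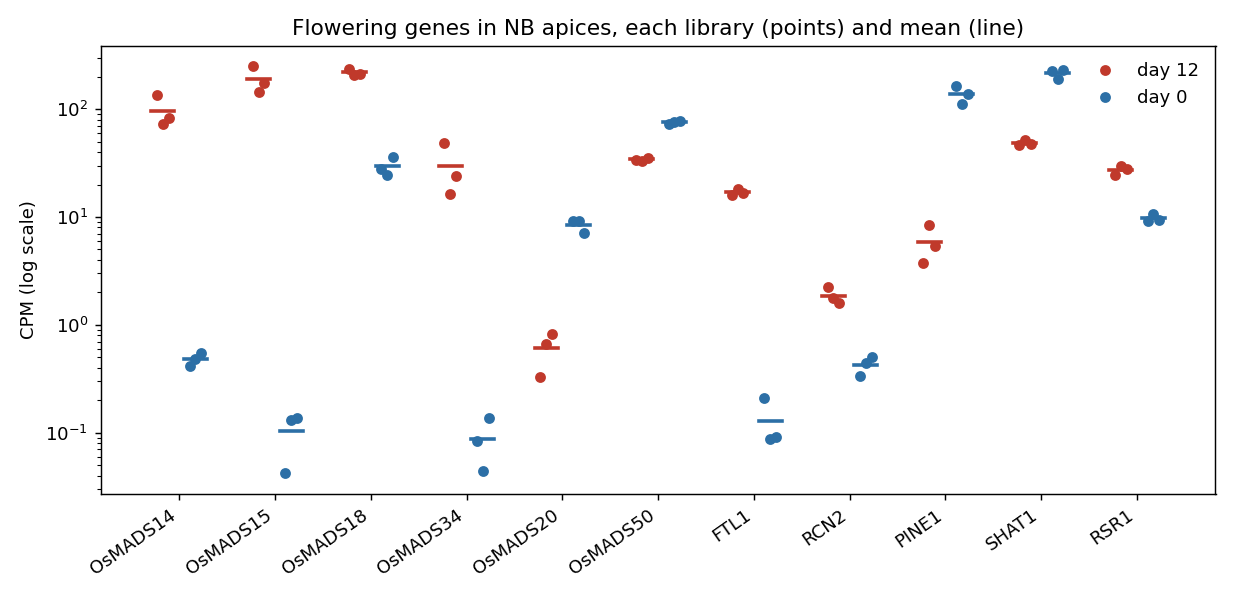
Levels of 11 flowering and meristem genes in NB apices, in CPM on a log axis, with day 12 at the left of each pair and day 0 at the right; points are the 3 libraries of a group and the line is their mean. The day 12 and day 0 points of each gene lie apart, by the most for OsMADS15, with 144 to 250 CPM at day 12 against 0.042 to 0.137 CPM at day 0.

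OsMADS20 (LOC_Os12g31748), a further gene of the FRUITFULL-like group, went the other way. It had 0.33, 0.67 and 0.83 CPM at day 12, against 9.16, 9.25 and 7.10 CPM at day 0, a log2 fold change of -3.76 ± 0.30 (SE, adjusted p = 2.2e-08, edgeR). It was singled out after its values were seen, among the genes with the largest falls.

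Some of the genes that act later, in spikelets and floral organs, were close to 0 at day 12. OsMADS2, OsMADS16 and DL, given further below, were not. All 10 genes of the SEPALLATA, AGL6, C and D classes other than OsMADS34 had too few counts to be tested, and their summed level was 0.53 to 0.77 CPM at day 12, against 0.29 to 0.41 CPM at day 0. OsMADS7 had 8 counts in all at day 12 against 0 at day 0, and OsMADS8 had 4 against 0. OsMADS1, a gene of spikelet and floret identity, had 1 count at day 12 and 0 at day 0. OsMADS13 and OsMADS21, of the ovule class, had 0 counts in all 6 libraries. FZP, which gives spikelet meristems their identity, had 0 counts at day 12 and 1 at day 0. At this depth these genes were not detectable above the level of 3 counts in most libraries, which is not the same as being absent.

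Genes of the B class, which specify lodicules and stamens, were present at both times. OsMADS2 had 22.1, 20.7 and 20.0 CPM at day 12, against 23.5, 24.1 and 22.5 CPM at day 0, and OsMADS16 had 14.1, 16.7 and 23.3 CPM against 28.6, 23.6 and 27.4 CPM. Neither passed the test (adjusted p = 0.44 and 0.15, edgeR), nor did OsMADS4. DL, a YABBY factor of carpels and of the leaf midrib, had 34.5, 39.6 and 26.4 CPM at day 12, against 46.7, 85.9 and 53.4 CPM at day 0. It was lower by a log2 fold change of -0.89 ± 0.22 (SE, adjusted p = 0.011, edgeR). The call was lost without NB day 12 replicate 3 (adjusted p = 0.064) or without NB day 0 replicate 2 (adjusted p = 0.078).

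Among the SVP-like and SOC1-like genes and OsMADS51, 3 of 6 fell and 2 rose. OsMADS50, a SOC1-like activator of flowering in long days, had 33.9, 33.4 and 35.2 CPM at day 12, against 73.6, 75.5 and 77.0 CPM at day 0. The groups were tight and far apart, with a log2 fold change of -1.14 ± 0.11 (SE, adjusted p = 3.2e-07, edgeR). OsMADS47, an SVP-like gene, had 43.7, 49.1 and 52.2 CPM at day 12 and 76.8, 75.5 and 72.5 CPM at day 0, a log2 fold change of -0.63. OsMADS51, which promotes flowering in short days, was lower by a log2 fold change of -0.46. Its symbol, like those of FTL1, RCN2, SNB, GA20ox1, GA2ox6, PIN1d and PINE1 below, was not in the RefSeq table and was kept from earlier work. OsMADS56, a SOC1-like repressor of flowering in long days, was higher by a log2 fold change of 0.91, with adjusted p = 0.056 without NB day 12 replicate 2 and 0.069 without NB day 0 replicate 1. OsMADS22, an SVP-like gene, was higher by 0.24 on the log2 scale, a call that was lost without each NB library other than day 0 replicate 3 (adjusted p = 0.053 to 0.12).

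The florigen gene Hd3a, which is expressed in leaves, had 0 counts in all 6 libraries. FTL1 (LOC_Os01g11940), a gene of the florigen family, was among the largest rises at the apex. It had 15.9, 18.4 and 16.7 CPM at day 12, against 0.21, 0.088 and 0.091 CPM at day 0, so every day 12 library lay far above every day 0 library. The difference was 123-fold, with a log2 fold change of 6.94 ± 0.36 (SE, adjusted p = 3.8e-11, edgeR), and 6.96 without NB day 12 replicate 3. Day 0 held 2 to 5 counts a library, so the size of this fold is uncertain too. RCN2, a relative of TERMINAL FLOWER 1 of Arabidopsis that keeps the inflorescence meristem from ending in a flower, had 2.26, 1.76 and 1.60 CPM at day 12, against 0.34, 0.44 and 0.50 CPM at day 0. It rose 4.34-fold, a log2 fold change of 2.12 ± 0.42 (SE, adjusted p = 0.0020, edgeR).

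Of 7 tested genes of photoperiodic flowering, 1 rose and 1 fell. GF14b, a 14-3-3 protein of the kind that binds florigen in the apex, had 225, 231 and 225 CPM at day 12, against 170, 157 and 176 CPM at day 0, a log2 fold change of 0.44 ± 0.08 (SE, adjusted p = 0.0013, edgeR). PHYA, a phytochrome, had 84.8, 79.0 and 86.3 CPM at day 12 and 159, 129 and 145 CPM at day 0, a log2 fold change of -0.79 ± 0.10 (SE, adjusted p = 1.9e-05, edgeR). PHYB and PHYC had log2 fold changes of -0.01 and -0.09 and did not pass the test.

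PINE1 (LOC_Os12g42250), a zinc finger gene that holds back internode elongation and that the study is named for, was 23.5-fold lower at day 12. It had 3.72, 8.37 and 5.34 CPM at day 12, against 163, 111 and 138 CPM at day 0, and the highest day 12 library was far below the lowest day 0 library. The log2 fold change was -4.55 ± 0.29 (SE, adjusted p = 9.2e-10, edgeR), and -4.49 without NB day 12 replicate 3. Since the study drew attention to this gene, its direction here is not independent evidence.

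The course over the 4 days of NB shows when these levels moved. Means were 0.48, 2.01, 22.9 and 97.1 CPM for OsMADS14 on days 0, 4, 8 and 12, and 29.7, 84.5, 153 and 219 CPM for OsMADS18. OsMADS34 averaged 0.088, 0.016, 0.34 and 29.5 CPM on those days, so its level at day 8 was still under 1 CPM. FTL1 averaged 0.13, 0.14, 2.25 and 17.0 CPM, and its 3 day 8 libraries ranged over 1.36 to 2.79 CPM. In the other direction PINE1 averaged 137, 99.8, 27.7 and 5.81 CPM, and its day 4 libraries, at 83.8 to 128 CPM, overlapped those of day 0. OsMADS50 averaged 75.4, 87.6, 62.7 and 34.2 CPM. The days between are given as values and were not tested.

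**Figure D2:**
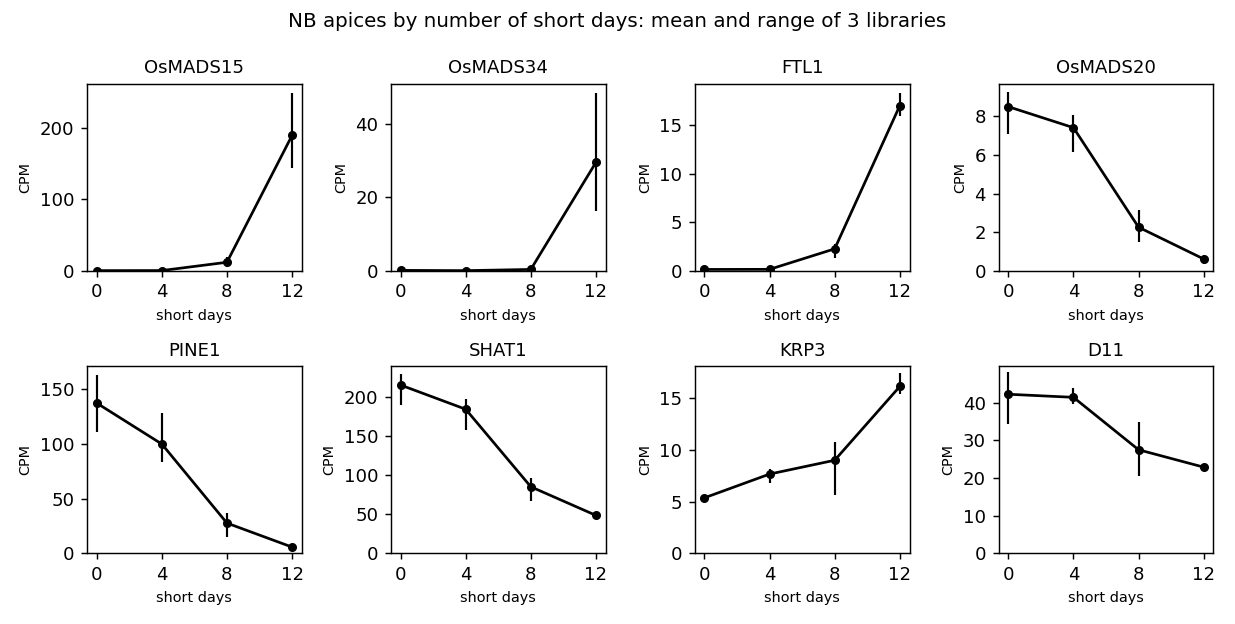
Levels of 8 genes in NB apices by the number of short days (0, 4, 8 and 12), in CPM on linear axes that start at 0; points are means of 3 libraries and bars their range. OsMADS34 stayed under 1 CPM to day 8 and averaged 29.5 CPM at day 12, and PINE1 averaged 137 CPM at day 0 and 5.81 CPM at day 12.

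Genes that shape the panicle and its branches rose in 6 of 9 cases tested, and 1 fell. The median log2 fold change of the list was 0.90, against -0.01 over all genes. NL1, a GATA factor that holds back the leaf-like bracts of the panicle, had 54.5, 25.7 and 37.1 CPM at day 12, against 5.46, 9.03 and 7.28 CPM at day 0. It rose 5.38-fold, a log2 fold change of 2.43 ± 0.27 (SE, adjusted p = 4.2e-06, edgeR). LOG, an enzyme that releases active cytokinin in the meristem, had 12.9, 12.8 and 10.0 CPM at day 12 and 5.08, 4.63 and 4.64 CPM at day 0, with a log2 fold change of 1.31 ± 0.17 (SE, adjusted p = 2.6e-05, edgeR). RFL, the rice counterpart of LEAFY, had 149, 83.5 and 87.4 CPM at day 12 and 42.0, 47.9 and 41.5 CPM at day 0, with a log2 fold change of 1.28 ± 0.26 (SE, adjusted p = 0.0027, edgeR). In these 3 genes the groups did not overlap.

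SNB, an AP2-type factor of the spikelet meristem, rose by 0.74 on the log2 scale (SE 0.11, adjusted p = 1.4e-04, edgeR). PLA1, a cytochrome P450 that sets the pace of leaf initiation, had 171, 101 and 85.7 CPM at day 12 and 61.6, 61.4 and 64.5 CPM at day 0, a log2 fold change of 0.93. Its call was lost without NB day 12 replicate 1 (adjusted p = 0.13) and without NB day 0 replicate 1 (adjusted p = 0.057). LAX1, a bHLH factor needed for axillary and branch meristems, had 11.8, 9.52 and 7.70 CPM at day 12 and 6.09, 3.92 and 5.42 CPM at day 0, a log2 fold change of 0.90 that passed with adjusted p = 0.033 and was lost without each library other than NB day 12 replicate 3 (adjusted p = 0.055 to 0.15). TAW1, which delays the change to spikelet meristems, was lower by a log2 fold change of -0.38, and the call was lost without NB day 12 replicate 1 or 3 or NB day 0 replicate 1 or 3 (adjusted p = 0.11 to 0.18). PLA2 missed the threshold (log2 fold change 0.42, adjusted p = 0.055, edgeR).

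Of the AP2-like genes, RSR1 and SHAT1 moved in opposite directions. SHAT1, known for the abscission zone of the grain and from the same family as SNB, had 47.0, 51.4 and 47.3 CPM at day 12, against 226, 189 and 229 CPM at day 0. It was 4.42-fold lower, a log2 fold change of -2.14 ± 0.13 (SE, adjusted p = 3.6e-10, edgeR), and its NB means on days 0, 4, 8 and 12 were 215, 184, 85.0 and 48.5 CPM. RSR1, known as a regulator of starch synthesis, had 24.5, 30.0 and 28.0 CPM at day 12 and 9.24, 10.7 and 9.38 CPM at day 0, a log2 fold change of 1.49 ± 0.19 (SE, adjusted p = 2.5e-05, edgeR).

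Among the SPL factors, which promote the adult and reproductive phase, 2 of 15 rose and 2 fell, with a list median of 0.04. Of all genes tested, 6.38% rose and 6.86% fell. OsSPL13, known for grain length, had 678, 545 and 575 CPM at day 12, against 231, 235 and 242 CPM at day 0, a log2 fold change of 1.34 ± 0.18 (SE, adjusted p = 2.8e-05, edgeR). OsSPL14, which promotes panicle branching and limits tillers, had 681, 468 and 436 CPM at day 12 and 285, 269 and 353 CPM at day 0, a log2 fold change of 0.81 (adjusted p = 0.0061, edgeR) that missed the threshold without NB day 12 replicate 1 (adjusted p = 0.059). OsSPL12 and OsSPL15 were lower by -0.35 and -0.31 on the log2 scale, and both calls were lost without NB day 12 replicate 1 (adjusted p = 0.055 and 0.081) and without NB day 0 replicate 1 (adjusted p = 0.061 and 0.089). OsSPL15 was also lost without NB day 12 replicate 2 or 3 or NB day 0 replicate 3 (adjusted p = 0.073 to 0.089).

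Growth-regulating factors (GRF), which keep cells of young organs dividing, rose in 6 of 10 cases, none fell, and the list median was 0.37. OsGRF12 had 25.6, 28.4 and 21.3 CPM at day 12 and 10.6, 12.6 and 15.2 CPM at day 0, a log2 fold change of 0.97 ± 0.17 (SE, adjusted p = 6.9e-04, edgeR). OsGRF7 had 307, 267 and 264 CPM at day 12 and 142, 207 and 176 CPM at day 0, a log2 fold change of 0.68 ± 0.12 (SE, adjusted p = 6.1e-04, edgeR). The count was 3 to 6 when single libraries were left out, being moved by over 1.5 times without NB day 12 replicate 1 or NB day 0 replicate 1. OsGRF10, with a log2 fold change of 0.68 and overlapping groups, was lost without NB day 12 replicate 1 or 2 or NB day 0 replicate 1 or 2 (adjusted p = 0.070 to 0.15). OsGRF1, with 0.48, was lost without NB day 0 replicate 1 (adjusted p = 0.091) or 3 (adjusted p = 0.066). Of 6 tested genes of the OsYAB series of YABBY factors, which act in the outer face of lateral organs in Arabidopsis, 3 rose and none fell; DL, the YABBY factor described above, was lower. OsYAB5 rose by 0.90, OsYAB3 by 0.82 and OsYAB4 by 0.56 on the log2 scale, and all 3 remained past the threshold whichever of the 6 libraries was left out.

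Genes that maintain the meristem did not pass the test with all libraries. These were 4 KNOX genes, 4 class III homeodomain leucine zipper genes, which set organ polarity, and FON1, FON2 and WOX4, which control meristem size. At an unadjusted p of 0.05, 1 KNOX gene was lower, 1 meristem size gene was higher and no class III gene passed, and DESeq2 called 0 in each of these lists. FON1 came nearest, with a log2 fold change of 0.51 and adjusted p = 0.067 (edgeR). It passed without NB day 12 replicate 3 (adjusted p = 0.049) or NB day 0 replicate 1 (adjusted p = 0.048), and OSH71, a KNOX gene, passed as lower without NB day 0 replicate 2 (adjusted p = 0.018).

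**Figure D3:**
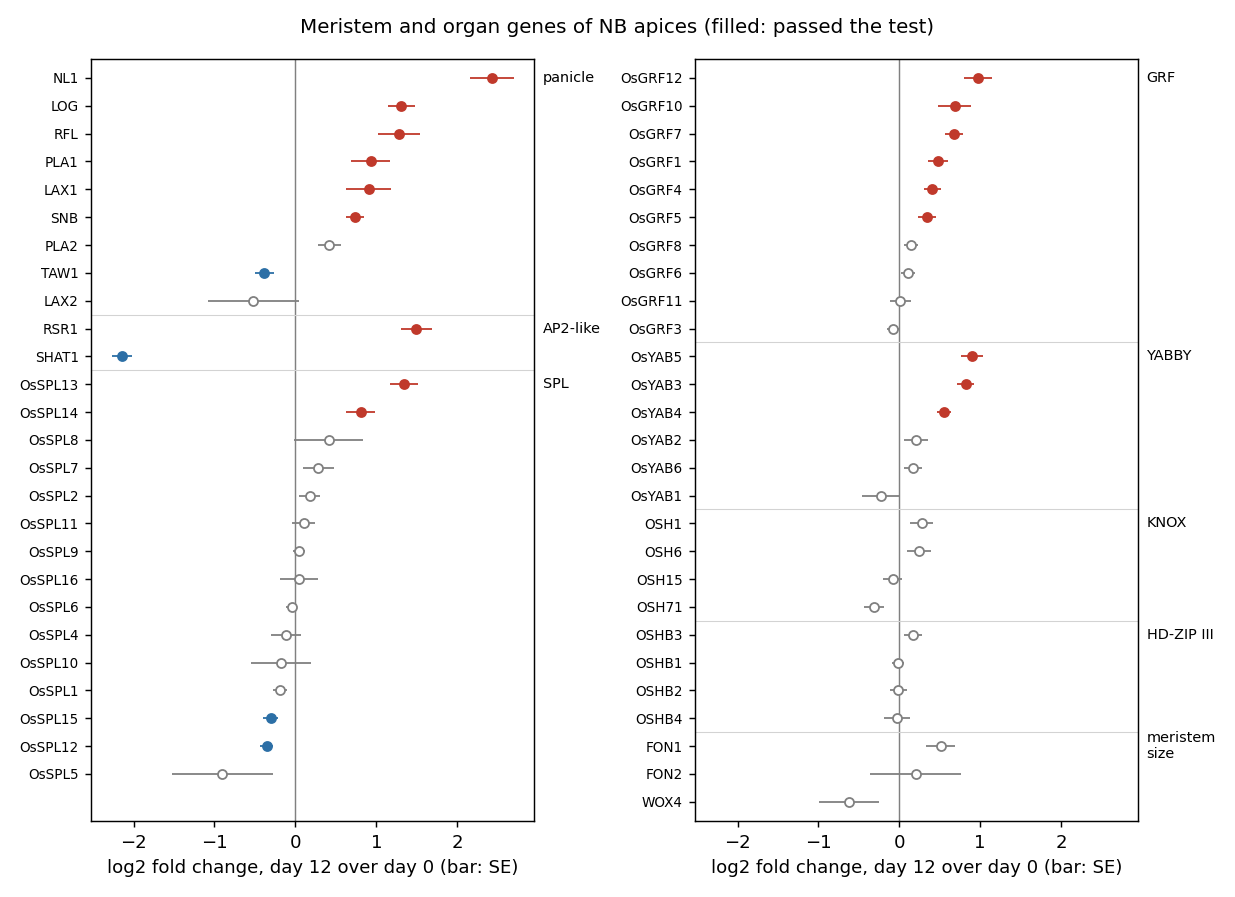
Log2 fold change of NB day 12 over NB day 0, with its SE, for every tested gene of the panicle, AP2-like, SPL, GRF, YABBY, KNOX, HD-ZIP III and meristem size lists; filled points passed the test (red higher, blue lower) and open points did not. Panicle genes passed upwards in 6 of 9 cases and GRF genes in 6 of 10, and no KNOX or HD-ZIP III gene passed.

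Genes of gibberellin, a hormone of stem elongation, moved in both directions: 4 of 11 tested rose and 1 fell. The median log2 fold change of the list was -0.16. Of all genes tested, 6.38% rose and 6.86% fell. GA2ox6, which inactivates gibberellin, had 52.3, 39.6 and 34.0 CPM at day 12 and 14.5, 14.6 and 8.01 CPM at day 0, a log2 fold change of 1.76 ± 0.22 (SE, adjusted p = 1.5e-05, edgeR). KAO, a step of gibberellin synthesis, had 16.7, 17.3 and 18.0 CPM at day 12 and 8.57, 4.58 and 8.42 CPM at day 0, a log2 fold change of 1.27 ± 0.24 (SE, adjusted p = 0.0016, edgeR). KS1, an early step, rose by 0.65 (SE 0.11, adjusted p = 3.9e-04, edgeR). GA20ox1 was higher by 0.62 and GA20ox2, the SD1 gene of semi-dwarf rice, was lower by a log2 fold change of -0.78. GA20ox1 was lost without NB day 12 replicate 1 or NB day 0 replicate 1 or 3 (adjusted p = 0.068 to 0.080), and GA20ox2 without each library other than NB day 12 replicate 2 (adjusted p = 0.083 to 0.21). The receptor GID1 and the DELLA repressor SLR1 had log2 fold changes of -0.12 and -0.18 and did not pass.

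Of 7 tested genes of brassinosteroid, a further growth hormone, 3 fell and none rose, and those 3 encode biosynthetic enzymes. DWARF4, another synthesis enzyme, had a log2 fold change of -0.16 and did not pass. D11, a cytochrome P450, had 22.8, 23.0 and 22.9 CPM at day 12, against 48.3, 34.5 and 44.0 CPM at day 0, a log2 fold change of -0.88 ± 0.14 (SE, adjusted p = 2.2e-04, edgeR). D2, also a cytochrome P450, had 9.10, 9.95 and 13.9 CPM at day 12 and 27.5, 14.7 and 23.7 CPM at day 0, a log2 fold change of -0.997. BRD1 was lower by a log2 fold change of -0.44. The calls of D2 and BRD1 were lost without NB day 12 replicate 1 (adjusted p = 0.057 and 0.061) and without NB day 0 replicate 1 (adjusted p = 0.077 and 0.087). BRD1 was also lost without NB day 12 replicate 3 (adjusted p = 0.14) and NB day 0 replicate 3 (adjusted p = 0.091). The receptor BRI1 had 276, 289 and 284 CPM at day 12 and 279, 276 and 296 CPM at day 0.

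Of 10 tested cytokinin oxidases and response regulators 2 fell and none rose, beside 13.2% of all genes tested that passed. LOG, of cytokinin activation, is given above and was higher. CKX2, an oxidase that degrades cytokinin and is known as the grain number gene Gn1a, had 1.33, 0.79 and 1.71 CPM at day 12, against 6.13, 4.58 and 5.87 CPM at day 0, a log2 fold change of -2.10 ± 0.51 (SE, adjusted p = 0.0095, edgeR). Without NB day 12 replicate 2 its adjusted p was 0.0501. CKX9 was lower by a log2 fold change of -0.51, a call lost without NB day 12 replicate 1 or 3 or NB day 0 replicate 1 or 3 (adjusted p = 0.063 to 0.12). Of 6 auxin genes, the transporters PIN1c and PIN1d rose by 0.87 and 0.97 on the log2 scale. These are near-identical copies, so how reads were shared between them is uncertain. Of 4 genes of strigolactone, the hormone that limits tillering, D17, a synthesis enzyme, had 5.25, 10.7 and 7.65 CPM at day 12 and 18.9, 15.6 and 16.89 CPM at day 0, a log2 fold change of -1.12 ± 0.23 (SE, adjusted p = 0.0027, edgeR). The receptor D14 was higher by 0.81, a call lost without replicate 1 or 2 of either group (adjusted p = 0.060 to 0.11).

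Of 14 genes of DNA replication and mitosis, 2 rose and none fell, a share near that of all genes tested (13.2%), with a list median of 0.15. PCNA, the replication clamp, had 396, 350 and 424 CPM at day 12 and 231, 336 and 242 CPM at day 0, a log2 fold change of 0.53, and the cyclin CYCB1-1 was higher by 0.31. Neither call held without NB day 12 replicate 3 (adjusted p = 0.083 and 0.090), NB day 0 replicate 1 (adjusted p = 0.12 and 0.065) or NB day 0 replicate 3 (adjusted p = 0.088 and 0.060), and PCNA was also lost without NB day 12 replicate 1 (adjusted p = 0.063). Of the KRP inhibitors of cyclin-dependent kinases, KRP3 had 17.5, 15.5 and 15.4 CPM at day 12, against 5.33, 5.33 and 5.46 CPM at day 0, a log2 fold change of 1.58 ± 0.18 (SE, adjusted p = 5.1e-06, edgeR). KRP1 had 0.40, 0.73 and 0.61 CPM at day 12 and 5.59, 2.25 and 2.64 CPM at day 0, a log2 fold change of -2.58 ± 0.51 (SE, adjusted p = 0.0020, edgeR).

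Of 6 cellulose synthases of the primary wall 4 fell and none rose, with a list median of -0.44. Of all genes tested, 6.86% fell. The count of 4 became 1 to 3 when single libraries were left out. CESA3 had 116, 115 and 112 CPM at day 12 and 176, 136 and 162 CPM at day 0, a log2 fold change of -0.47 ± 0.09 (SE, adjusted p = 0.0021, edgeR), and remained past the threshold without any 1 library. CESA2, CESA5 and CESA6 were lower by log2 fold changes of -0.41, -0.51 and -0.55. CESA2 was lost without NB day 12 replicate 2 or 3 or NB day 0 replicate 1 or 3 (adjusted p = 0.060 to 0.13), CESA5 without each library other than NB day 0 replicate 2 (adjusted p = 0.067 to 0.11) and CESA6 without any of the 6 (adjusted p = 0.057 to 0.13). Of 11 tested expansins, which loosen walls, 2 fell and none rose, beside 13.2% of all genes tested that passed. EXPA2 had 12.0, 13.2 and 8.58 CPM at day 12 and 24.1, 21.3 and 19.9 CPM at day 0. EXPA16 was lower by a log2 fold change of -0.35. The call of EXPA16 was lost without NB day 12 replicate 3 (adjusted p = 0.057) or NB day 0 replicate 1 (adjusted p = 0.077). Of 6 tested aquaporins, TIP1-1, of the vacuole membrane, had 198, 193 and 163 CPM at day 12 and 92.4, 76.6 and 87.2 CPM at day 0, a log2 fold change of 1.11 ± 0.14 (SE, adjusted p = 2.6e-05, edgeR). PIP1-2 was higher by 0.87 and PIP1-1 lower by a log2 fold change of -0.90. PIP1-2 was lost without NB day 12 replicate 1 (adjusted p = 0.063) or NB day 0 replicate 3 (adjusted p = 0.055), and PIP1-1 without NB day 12 replicate 1 or 2 or NB day 0 replicate 1 or 3 (adjusted p = 0.064 to 0.23).

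**Figure D4:**
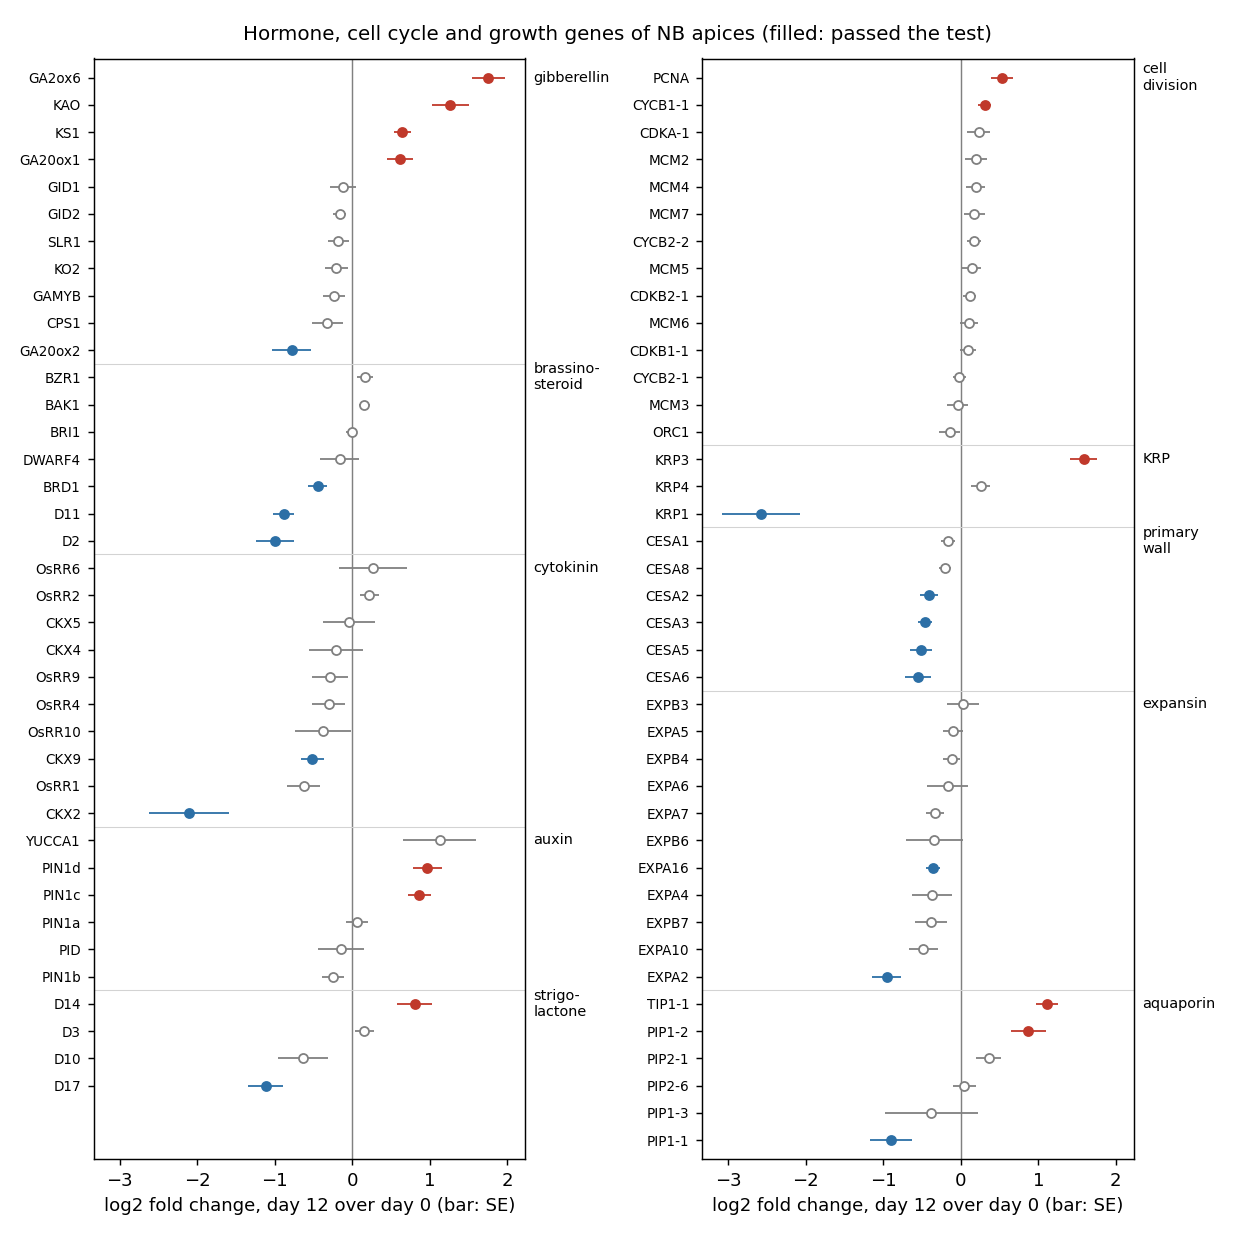
Log2 fold change of NB day 12 over NB day 0, with its SE, for tested genes of hormone, cell cycle and growth lists. Every tested gene of the hormone, cell cycle, primary wall cellulose synthase, expansin and aquaporin lists is shown. Filled points passed the test (red higher, blue lower) and open points did not. The brassinosteroid and cellulose synthase genes that passed were all lower, and of the KRP genes KRP3 was higher by 1.58 and KRP1 lower by a log2 fold change of -2.58.

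Markers of green leaf tissue moved with the group. Of 4 leaf photosynthesis genes 2 rose, and their summed level was 59.0, 122 and 149 CPM at day 12, against 35.9, 35.2 and 34.9 CPM at day 0. CAB1R, a chlorophyll-binding protein, had 30.5, 59.7 and 79.1 CPM at day 12 and 13.9, 13.9 and 8.97 CPM at day 0, a log2 fold change of 2.20 ± 0.28 (SE, adjusted p = 2.4e-05, edgeR), and CAB2R was higher by 2.19. These belong to a family of similar genes, so their values are uncertain. None of the 4 was at 0. Of the day 12 libraries, replicate 1 was the lowest in this sum and the highest for OsMADS14. In bulk samples fewer cells of a type and less RNA per cell cannot be told apart. The part of these markers in the results above was not tested. Of 5 tested genes of the secondary wall and lignin none passed, with 0 also at an unadjusted p of 0.05 and by DESeq2, and the list summed to 74.7 to 88.2 CPM at day 12 and 74.0 to 92.7 CPM at day 0.

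Among the genes used as signs of sample handling, JAZ8, a jasmonate-induced repressor, had 6.38, 7.70 and 11.9 CPM at day 12, against 46.8, 28.9 and 52.4 CPM at day 0. It was 4.89-fold lower, a log2 fold change of -2.29 ± 0.36 (SE, adjusted p = 2.2e-04, edgeR), and 3 heat shock genes did not pass. The other 3 of the 7 genes of this list, JAZ9, JAZ11 and AOS2, had too few counts to be tested. Of 8 clock genes 4 rose and 1 fell: GI rose by 0.69, PRR73 by 0.47, PRR37 by 0.48 and PRR95 by 0.57 on the log2 scale, and LHY was lower by a log2 fold change of -0.41. Without NB day 0 replicate 1 the calls of PRR37, PRR95 and LHY were lost (adjusted p = 0.069, 0.14 and 0.12). PRR95 was lost without each library other than NB day 0 replicate 3 (adjusted p = 0.058 to 0.16), and LHY also without NB day 12 replicate 1 or 2 or NB day 0 replicate 3 (adjusted p = 0.054 to 0.12). No source used here gives the time of day of sampling, and the light period differed between the groups, so day length and phase cannot be told apart.

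Outside the lists, the largest rises and falls were mostly of loci with no symbol here. LOC_Os04g29310 had 1092, 646 and 633 counts at day 12, against 5, 4 and 1 counts at day 0, a log2 fold change of 8.32. LOC_Os08g13680 had 270, 161 and 287 counts at day 12 against 3, 1 and 2 at day 0, a log2 fold change of 7.26. Among falls, LOC_Os01g12110 had 0, 6 and 4 counts at day 12, against 341, 202 and 244 at day 0, a log2 fold change of -5.79, and LOC_Os09g37967 had 11 counts in all at day 12 against 570 at day 0. Recognised among these extremes after the values were seen were Emp1, a late embryogenesis protein gene, Lsi1, a silicon influx transporter, and NRAMP5, a manganese transporter. Emp1 had 550, 248 and 306 CPM at day 12 and 6.47, 13.0 and 6.56 CPM at day 0, and Lsi1 had 8.17, 5.52 and 7.65 CPM against 0.25, 0.22 and 0.18 CPM. NRAMP5 had 1.59, 1.94 and 2.53 CPM at day 12, against 57.5, 12.7 and 28.9 CPM at day 0, a wide spread within day 0.

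Whether the change at day 12 differed between the cultivars was tested directly, as the NB difference minus the T65 difference, each against its own day 0. Of all genes tested, 1555 passed (6.81%), 728 in the positive direction and 827 in the negative, and 35 of the list genes passed. T65 day 12 has 2 libraries, and its replicate 2 held the fewest counts, 8.61 M. The number passing was 237 without that library and 13 where libraries of the lower share of multiply aligned reads were left out, which leaves 1 T65 day 0 library, and none of these list genes passed there.

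With those limits, PINE1 was lower by more in NB: its change was -4.55 on the log2 scale in NB and -1.66 in T65, and the difference was -2.89 ± 0.39 (SE, adjusted p = 3.8e-04, edgeR). T65 had 33.4 and 42.3 CPM at day 12, and 111 to 138 CPM at day 0. FTL1 rose by 6.94 in NB and 2.28 in T65, a difference of 4.66 ± 0.82 (SE, adjusted p = 0.0029, edgeR), and OsMADS14 by 7.63 and 4.41. The OsMADS14 difference was lost without T65 day 12 replicate 2 (adjusted p = 0.067) or T65 day 0 replicate 1 (adjusted p = 0.18). OsMADS50 was lower in NB and had a log2 fold change of 0.10 in T65, where it did not pass, and the difference was -1.24 ± 0.16 (SE, adjusted p = 1.7e-04, edgeR). KRP3 had a log2 fold change of 1.58 in NB and 0.00 in T65, a difference with adjusted p = 0.0032 (edgeR). For OsMADS34 the T65 libraries held 0 to 0.044 CPM at day 12, and the difference missed the threshold (adjusted p = 0.064, edgeR), as it did for OsMADS15 (adjusted p = 0.30, edgeR). Of the 14 replication and mitosis genes 7 differed between the cultivars, all with the higher log2 fold change in NB; PCNA had 0.53 in NB and -0.62 in T65. Without T65 day 12 replicate 2 the differences of PCNA, MCM4, MCM5, MCM6, MCM7 and CYCB2-2 were lost (adjusted p = 0.060 to 0.23), which leaves CYCB1-1. MCM5 and CYCB2-2 passed in 3 of the 11 fits that each left out 1 library.

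**Figure D5:**
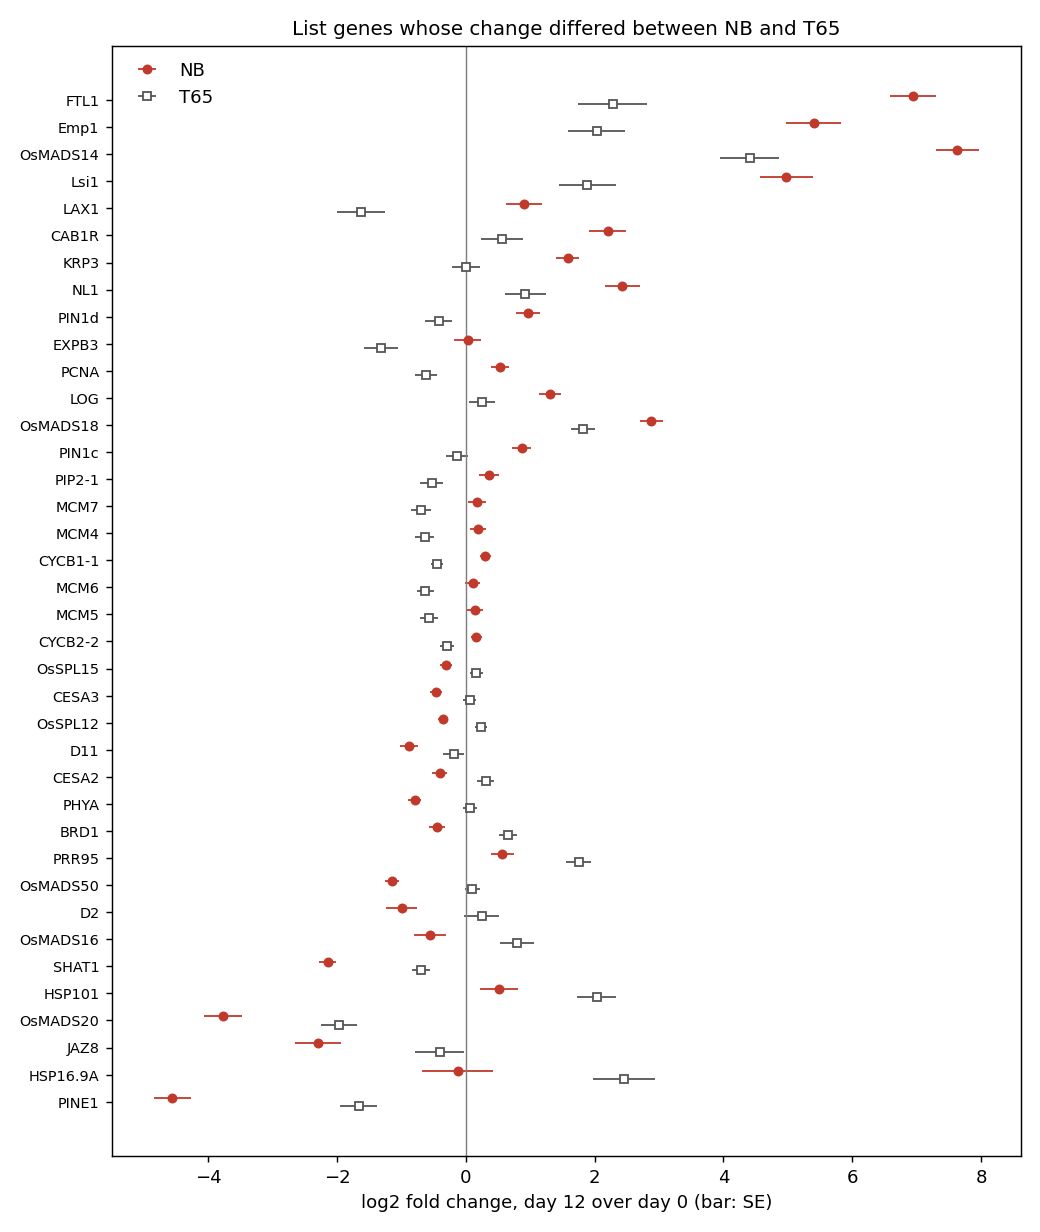
Log2 fold change of day 12 over day 0, with its SE, in NB (filled circles, upper of each pair) and T65 (open squares) for the genes of the lists, and genes named after their values were seen, whose change differed between the cultivars. FTL1 rose by 6.94 in NB and 2.28 in T65, and PINE1 had log2 fold changes of -4.55 in NB and -1.66 in T65.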

How the data were processed

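RNA sequencing libraries of shoot apices were used as the authors deposited them: 1 file of raw counts per gene for each of 23 libraries, with no normalization. The 30 samples in the labels include sequencing runs that the authors merged, per the labels, and none of the 6 NB day 12 and day 0 libraries is a merged one. The submitters' processing notes name edgeR 3.6.4, R 3.1.0, HTSeq, TopHat2 and Bowtie2. What each did, the genome build and whether counting used strand are not stated in the labels or the files, so reads of a gene and of one overlapping it or antisense to it are not separable. Library sizes do not include the 5 summary lines of a file: reads in no gene came to 4.72 to 5.51% of assigned reads.

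Of 55986 loci, 19084 had 0 counts everywhere and 22839 passed filterByExpr on the 8 groups of cultivar and day. All 23 libraries entered 1 quasi-likelihood model of edgeR 4.0.16 (R 4.3.3, limma 3.58.1) with TMM scaling and 15 residual degrees of freedom, with no replicate block, and p-values were adjusted by Benjamini-Hochberg at 0.05. The common coefficient of variation was 12.7%. An SE is the log2 fold change divided by the square root of the F statistic, and can be smaller than counting error where counts are few. Libraries of a group were not duplicates (chi-square per gene 5.93 to 15.2). Alternatives included DESeq2 1.42.0.

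The files give MSU locus names. Symbols were recalled and checked for name and chromosome against a RefSeq table of assembly ASM3414082v1, which holds no MSU names: of 244 pairs, 201 passed, 9 absent from the table were kept from earlier work and 34 were dropped. A pair also had to lie within 2 Mb of the place expected from the other pairs, a span that can hold many genes. CAB1R deviated by 1.50 Mb and PRR95 by -1.19 Mb, so these symbols are less certain. The members, lists and tests were chosen with earlier results of these data known. Named were, in each list, up to 4 genes that passed in each direction, all tested genes of the MADS-box and florigen lists and PINE1, the largest changes outside the lists with a mean of at least 5 CPM, and for the cultivar difference the 4 largest list genes in each direction. Genes named beside this rule (OsMADS50, KRP3, PCNA, OsMADS15 and OsMADS34 for the cultivar difference, and genes that missed the threshold) were chosen after their values were seen. A gene that the list totals include is not reported here.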

Additional observations from a re-analysis of the deposited data

Results flagged for a closer look

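For 8 list genes the change at day 12 differed between the cultivars by the test of the difference itself (edgeR), being the 4 largest in each direction. Each value is the NB log2 fold change minus the T65 log2 fold change, with its SE. FTL1 had 4.66 ± 0.82 (adjusted p = 0.0029), OsMADS14 3.23 ± 0.80 (adjusted p = 0.020), LAX1 2.53 ± 0.47 (adjusted p = 0.0041) and CAB1R 1.64 ± 0.43 (adjusted p = 0.028). In the other direction PINE1 had -2.89 ± 0.39 (adjusted p = 3.8e-04), HSP16.9A -2.59 ± 0.73 (adjusted p = 0.038), JAZ8 -1.88 ± 0.52 (adjusted p = 0.033) and HSP101 -1.51 ± 0.42 (adjusted p = 0.036).

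LAX1 rose by 0.90 in NB and had a log2 fold change of -1.63 in T65, where it had 1.27 and 1.80 CPM at day 12 and 3.46 to 6.51 CPM at day 0. HSP101, a heat shock chaperone, had 11.8, 13.2 and 20.9 CPM at NB day 12 and 8.29 to 12.6 CPM at NB day 0, against 130 and 142 CPM at T65 day 12 and 28.9 to 40.7 CPM at T65 day 0. HSP16.9A likewise had 3.59 and 10.9 CPM at T65 day 12 and 1.13 to 1.84 CPM at T65 day 0. Its NB means were 0.67 CPM at day 12 and 0.73 CPM at day 0, a log2 fold change of -0.13. The copy HSP16.9B is near-identical, so the counts of HSP16.9A are uncertain. NB levels of JAZ8 and CAB1R are given above. The calls of the cultivar difference rest on single libraries in part. Over 11 fits that each left out 1 library, the differences of FTL1, LAX1 and PINE1 passed in all 11, that of OsMADS14 in 9, CAB1R in 6, HSP101 in 4, JAZ8 in 3 and HSP16.9A in 2. The highest adjusted p in those fits was 0.18 for OsMADS14 without T65 day 0 replicate 1, 0.14 for CAB1R and 0.15 for HSP101 without T65 day 12 replicate 2, and 0.18 for JAZ8 and 0.23 for HSP16.9A without T65 day 12 replicate 1. None passed among libraries of the higher share of multiply aligned reads, where T65 day 0 has 1 library; the lowest adjusted p of the 8 was 0.072, for PINE1.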

How the results depend on the processing

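Alternatives were run for the 76 named genes that passed, and none of these turned its direction. Of them, 44 passed under every alternative and 45 in every fit without 1 NB library. The 3023 genes passing became 1187 (671 higher, 516 lower) among libraries of the higher share of multiply aligned reads, and 1345 to 2680 without 1 NB library. The 851 past 2-fold became 565 among the higher-share libraries and 553 to 874 without 1 library. The 1555 that differed between cultivars became 2432 with no filter, 794 with the share of multiply aligned reads as a term, 13 among the higher-share libraries and 237 to 2132 without 1 library; T65 libraries were left out as alternatives chosen after seeing the data. The cause was not tested. The other totals were within 1.5 times: 2042 with NB libraries alone, 4214 with the 6 libraries alone, 3050 with median of ratios scaling, 3468 with DESeq2, 3626 with no filter and 3021 with a stricter one. The higher and lower genes of the 6 libraries alone numbered 2216 and 1998. Same-numbered NB libraries deviated with correlations of -0.01, -0.03 and -0.04 between days. With so few libraries a group, these values cannot settle whether the numbers pair them. With a replicate block 3301 genes passed, 822 past 2-fold, and 1532 differed between cultivars. Day 12 levels under 0.2 CPM are limited by depth.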
